A study of Homo sapiens with 9 samples.

Results

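The T-box factors described here are EOMES, TBXT (brachyury), TBX6, TBX2, TBX3, TBX5 and TBX20, 7 of the transcription factors that share the T-box DNA-binding domain. They were chosen by name, with earlier results of these data known, so counts of them are a description. Every probe set whose single gene symbol was one of these names was kept, which gave 7 probe sets, 1 per gene, of 33297 on the array, and 7 of the 18417 genes fitted. RNA was read on 9 Affymetrix arrays. All came from H9-TCF7L1, a derivative of the established human embryonic stem cell line H9 that is transgenic for TCF7L1. PS medium with Dox denotes cells held for 48 h in primitive streak (PS) differentiation medium with 1 ug/ml doxycycline (Dox), given to over-express TCF7L1. PS medium denotes cells held for 48 h in that medium alone. Untreated denotes cells kept in mTeSR1, a stem cell maintenance medium. Each group had 3 arrays, and no array analysed here came from cells given Dox in mTeSR1 or from cells without the transgene. Whether the line is 1 clone and which factors the PS medium holds were not stated in the labels. The study set out to find putative TCF7L1 targets by over-expression.

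T-box proteins bind a short DNA element through a conserved domain and activate or repress nearby genes. In vertebrate gastrulation, EOMES and TBXT are switched on in the primitive streak by Nodal, Wnt and BMP signals, and their targets lead cells to endoderm and mesoderm. EOMES is best known for definitive endoderm and early cardiac mesoderm. TBXT is known for the posterior streak, axial mesoderm and notochord, and in mouse it acts upstream of TBX6, a factor of presomitic mesoderm. TBX2 and TBX3 are closely related repressors, TBX5 is a factor of heart and forelimb, and TBX20 is a factor of the heart that also occurs in lateral mesoderm. TCF7L1, the induced gene, belongs to the TCF/LEF proteins, which bind DNA at Wnt targets, and acts there mainly as a repressor.

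Of the 7 genes, 5 have a start site in the RefSeq promoter table of build GRCh38.p14, with 2 starts each for TBXT and TBX5. TBX2 and TBX3 were not in it. The windows of the 3 genes called lower with Dox are shown, picked after their values were seen. Whether TCF7L1 acts at these windows was not tested. Each window runs from 250 bases before the start site to 50 bases after it. Capitals mark a TCF/LEF element, searched as CTTTGAT or CTTTGAA on both strands, or a T-box element, searched as AGGTGTGA on both strands.
EOMES, chr3:27722274-27722573, minus strand: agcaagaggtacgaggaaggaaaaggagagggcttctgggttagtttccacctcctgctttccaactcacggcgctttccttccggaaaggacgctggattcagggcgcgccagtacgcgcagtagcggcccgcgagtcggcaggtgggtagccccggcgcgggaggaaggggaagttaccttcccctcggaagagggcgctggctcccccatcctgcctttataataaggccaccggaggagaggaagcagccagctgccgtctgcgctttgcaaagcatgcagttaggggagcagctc
TBXT, upstream start, chr6:166168606-166168905, minus strand: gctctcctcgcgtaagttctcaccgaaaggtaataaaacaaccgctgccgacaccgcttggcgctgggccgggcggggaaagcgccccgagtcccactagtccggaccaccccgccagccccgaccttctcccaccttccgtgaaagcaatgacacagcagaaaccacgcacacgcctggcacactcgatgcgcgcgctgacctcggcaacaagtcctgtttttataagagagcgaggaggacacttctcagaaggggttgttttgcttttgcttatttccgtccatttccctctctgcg
TBXT, downstream start, chr6:166167802-166168101, minus strand: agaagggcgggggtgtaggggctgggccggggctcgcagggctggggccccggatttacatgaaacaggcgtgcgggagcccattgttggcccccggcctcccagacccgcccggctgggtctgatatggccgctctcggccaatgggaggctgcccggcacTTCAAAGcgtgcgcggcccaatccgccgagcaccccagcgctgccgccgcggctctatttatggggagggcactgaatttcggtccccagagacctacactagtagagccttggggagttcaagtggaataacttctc
TBX6, chr16:30091875-30092174, minus strand: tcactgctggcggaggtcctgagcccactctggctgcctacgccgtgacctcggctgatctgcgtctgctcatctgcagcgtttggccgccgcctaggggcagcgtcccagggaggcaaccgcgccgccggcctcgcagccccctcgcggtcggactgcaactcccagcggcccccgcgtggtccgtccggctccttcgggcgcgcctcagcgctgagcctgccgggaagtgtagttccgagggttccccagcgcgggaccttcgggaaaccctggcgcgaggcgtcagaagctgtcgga
The downstream TBXT start held 1 TCF/LEF match, on the minus strand of the window and beginning 88 bases before the start site. The other windows of the 5 genes held none, and no window held the T-box element. The FOXH1 letters AATCCACA were found in no window on either strand. The same held for the shorter SMAD letters CAGACA, and the GATA letters AGATAA were also in none. Background shares were taken over 27305 promoters of the same length, using only the first listed start of each gene. Of these, 6.98% held the TCF/LEF letters, 0.982% the T-box letters, 0.798% the FOXH1, 16.8% the SMAD and 10.5% the GATA letters. Among the 14239 of them whose genes were fitted here, the shares were 5.53%, 0.85%, 0.555%, 14.4% and 7.59%, in the same order. TBXT and TBX5 were searched at 2 starts each. The TBXT start with the match is not its first listed start, so that match is outside the 6.98% and the 5.53%. A match is a string of letters and was not measured as a binding site, and distal elements lie outside these windows.

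Array medians of the deposited intensities ran from 200.4 to 216.5, and correlations over genes were 0.989 or higher within groups. TCF7L1 had intensities of 13100.2, 12433 and 2699 with Dox, 1275, 1542 and 1611 in PS medium, and 3718, 3878 and 3572 in untreated cells. The third Dox array therefore held less TCF7L1 than any untreated array, and the members and list counts with Dox, and most list genes given as a fold, are also given without it. Of 9 measured pluripotency markers, all had a mean above the array median in untreated cells, 7 fell in PS medium against untreated cells and 0 rose by limma (0 also at an unadjusted p under 0.05). Of the 9, 4 rose with Dox against PS medium and 0 fell (0 also at an unadjusted p under 0.05): SOX2 by 4.53-fold, PRDM14 by 2.10-fold, FOXD3 by 1.65-fold and DPPA4 by 1.22-fold. Their summed intensities ran from 25353 to 26296 with Dox, from 20685 to 22622 in PS medium and from 29688 to 31625 in untreated cells. Relative to untreated cells, 3 were lower with Dox and 0 higher (0 also at an unadjusted p under 0.05). Without the third Dox array the DPPA4 call with Dox against PS medium was lost (limma adjusted p = 0.0526) and LIN28A passed as higher. POU5F1 and NANOG were not analysed here. Summed amnion markers (6 measured) ran from 25835 to 29445 with Dox, from 14603 to 15602 in PS medium and from 1117 to 1170 in untreated cells. TFAP2A held the largest share of that sum with Dox and in PS medium, with mean intensities of 17114 with Dox, 8440 in PS medium and 202 in untreated cells. Of the 6, 5 rose and 0 fell with Dox against PS medium, and HAND1 did not pass (log2 -0.51). In PS medium against untreated cells 4 rose, KRT7 was 3.37-fold lower and VTCN1 did not pass (log2 -0.19). With Dox against untreated cells 5 were higher, and KRT7 did not pass (log2 -0.07). GABRP, a defining amnion marker, was not analysed here. Summed fibroblast markers (6 measured) ran from 1881 to 2178 with Dox, from 1908 to 2195 in PS medium and from 5212 to 5376 in untreated cells. THY1 held most of that sum in untreated cells, with mean intensities of 816 with Dox, 1325 in PS medium and 4256 in untreated cells. POSTN was 4.41-fold higher with Dox than in PS medium (2.77-fold without the third Dox array) and THY1 1.61-fold lower. In PS medium against untreated cells THY1 and COL1A1 fell, and with Dox against untreated cells those were lower and POSTN higher. COL3A1, DCN and LUM passed in none of the 3 comparisons, with DCN at 24.3 with Dox, 25.3 in PS medium and 25.1 on untreated arrays. The part of other cell types in the results below was not tested. The shares of all genes that passed in each comparison are given in the next paragraph.

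In PS medium 5 of the 7 T-box genes rose over untreated cells and none fell: EOMES, TBXT, TBX6, TBX3 and TBX20 passed, while TBX2 and TBX5 did not. With Dox in PS medium 3 of the 7 fell against PS medium, EOMES, TBXT and TBX6, and none rose. The 4 pluripotency markers named above rose in the same comparison, and their part in these falls was not tested. An effect of doxycycline itself and one of TCF7L1 cannot be told apart in this design. Against untreated cells, those 5 genes were also higher with Dox. These calls are limma adjusted p-values under 0.05, with Benjamini-Hochberg adjustment over all 18417 genes. For Dox against PS medium, 17.4% of all genes passed, 8.92% as higher and 8.44% as lower, and the arrays of the groups did not overlap for 29.9%. For PS medium against untreated cells, 29.8% passed, 14.2% as higher and 15.7% as lower, and 42.5% did not overlap. For Dox against untreated cells, 30.3% passed, 15.4% as higher and 14.9% as lower, and 44.6% did not overlap. On the values as deposited the shares past the threshold were 17.1% for Dox against PS medium, 29.5% for PS medium against untreated cells and 29.8% for Dox against untreated cells. Of the 7 genes, 3 did not overlap with Dox against PS medium (EOMES, TBXT and TBX6), and the 5 that rose did not overlap in either comparison with untreated cells. The median log2 difference of the 7 genes was -0.78 with Dox against PS medium, where that of all genes was 0.002. It was 1.68 in PS medium against untreated cells, where that of all genes was -0.0055. The comparisons share arrays, so their values stand side by side and are not separate evidence. In bulk RNA, fewer cells of a type and less RNA per cell cannot be told apart.

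**Figure D1:**
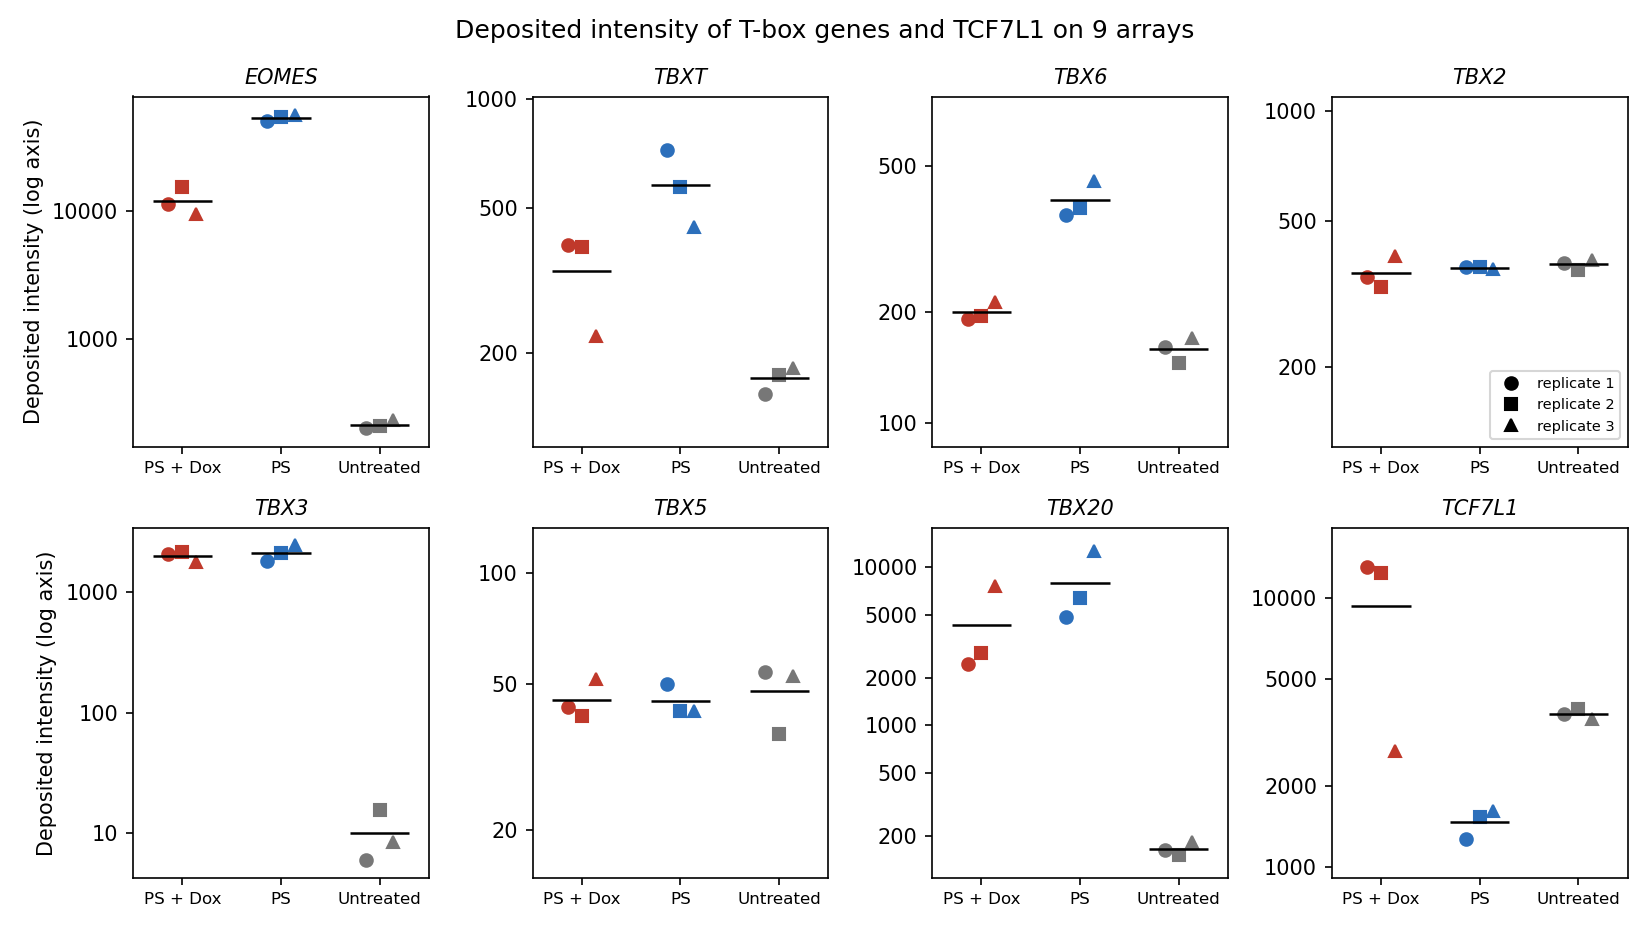
Deposited intensity (log axes, a scale per panel) of the 7 T-box genes and of TCF7L1 on each array, with PS medium with Dox in red, PS medium in blue and untreated cells in grey. Marker shapes give the replicate number and bars the group mean. EOMES falls to between 9529 and 15554.5 with Dox, against 50981 to 57102 in PS medium, while the TBX3 arrays with Dox overlap those of PS medium.

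EOMES, the endoderm and cardiac mesoderm factor, rose in PS medium and fell with Dox. Its deposited intensities were 11479, 15554.5 and 9529 in PS medium with Dox, against 50981, 55273 and 57102 in PS medium. On untreated arrays the values were 199.5, 206 and 229. All 3 groups were separate, with every Dox array between those of PS medium and of untreated cells. On the values as deposited, EOMES was 4.55-fold lower with Dox than in PS medium (log2 -2.19 ± 0.14, SE, n = 3 per group, limma adjusted p = 2.63e-06). The fall was present for each replicate number, with ratios of Dox over PS medium of 0.225, 0.281 and 0.167. Without the third Dox array, which had the least TCF7L1, it was 4.07-fold (log2 -2.02, limma adjusted p = 1.88e-06).

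The size of the EOMES change depended on normalization because EOMES was the brightest probe set of all 33297 on every PS array. The next brightest probe set there reached 33414 to 39251, and no probe set on a Dox or untreated array exceeded 18364. Quantile normalization gave the brightest probe set of each array the common value of 29997, so all 3 PS arrays had the same EOMES value (log2 SD 0). On that scale EOMES was 2.498-fold lower with Dox (log2 -1.32 ± 0.14, limma adjusted p = 8.89e-05), and 2.15-fold lower when arrays were quantile-normalized after the log2 step. With the arrays centred on their medians the fold was 4.57. The direction and the call were the same on each scale, and the deposited intensities are the ones that keep the spread among PS arrays.

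**Figure D2:**
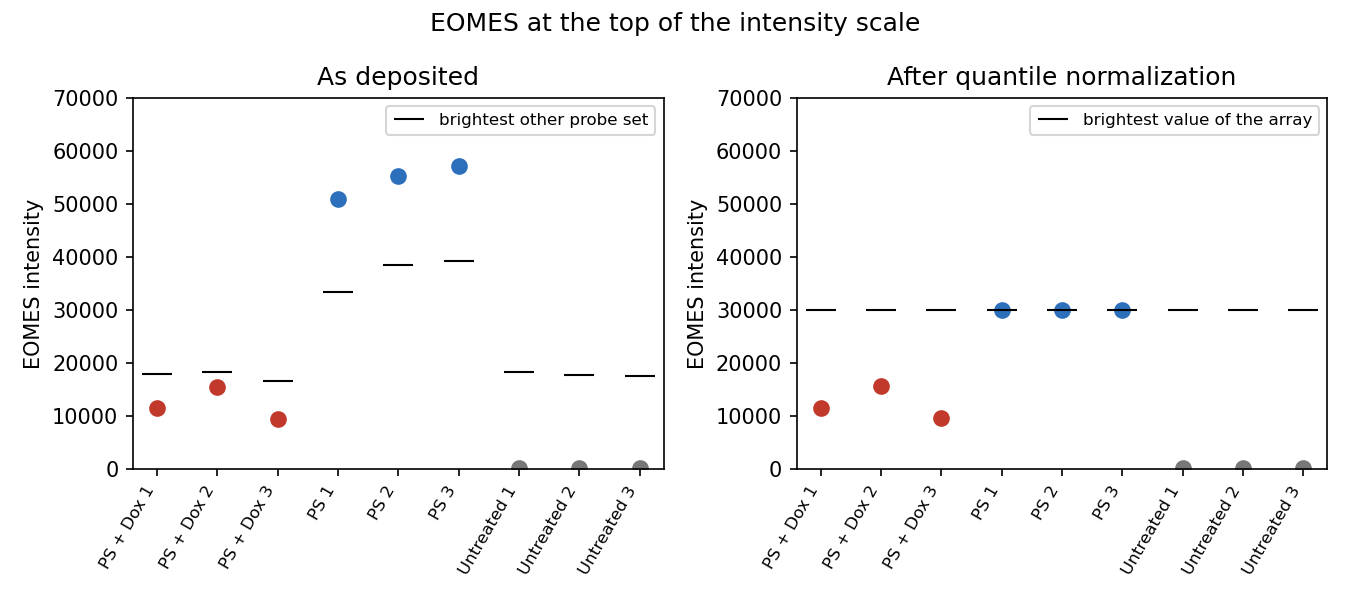
EOMES intensity on each array, as deposited (left) and after quantile normalization (right), with Dox arrays in red, PS arrays in blue and untreated arrays in grey. Dashes give the brightest other probe set (left) and the brightest value of the array (right). The PS arrays at 50981 to 57102 all take the value 29997 after quantile normalization, while the Dox arrays stay near their deposited values.

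In PS medium EOMES was 239-fold higher than in untreated cells on the values as deposited (log2 7.90 ± 0.14, limma adjusted p = 1.47e-10), rank 2 among the rises of 18417 genes. On the quantile-normalized scale the rise was 134-fold (log2 7.06 ± 0.14) and rank 4. With Dox it was still 52.6-fold above untreated cells as deposited (log2 5.72 ± 0.14, limma adjusted p = 4.86e-10), where normalization mattered little (53.5-fold after quantile normalization). Mean intensity with Dox was thus 22.4% of that in PS medium and 57.6 times that in untreated cells.

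TBXT, the streak and notochord factor, rose in PS medium and was lower with Dox. Its deposited intensities were 396, 391 and 222 in PS medium with Dox, against 724, 571 and 443 in PS medium. Untreated cells had 155, 174 and 181. The groups did not overlap, but the highest Dox array lay close to the lowest PS array. TBXT was 3.20-fold higher in PS medium than in untreated cells (log2 1.68 ± 0.22, SE, n = 3 per group, limma adjusted p = 0.000209). With Dox it was 1.72-fold lower than in PS medium (log2 -0.78 ± 0.22, 95% interval -1.27 to -0.29, limma adjusted p = 0.0330). That call was lost without the third Dox array (log2 -0.52, limma adjusted p = 0.0776), without PS replicate 1 (-0.60, 0.125) or 2 (-0.77, 0.0727) and without untreated replicate 1 (-0.78, 0.0502). It was also lost in a fit of the 2 groups alone (adjusted p = 0.0776) and over all probe sets (0.0665). Over the 19 alternatives the adjusted p ran from 0.0102 to 0.125, and the direction was lower in each. Against untreated cells TBXT remained higher with Dox, by 1.86-fold (log2 0.90 ± 0.22, limma adjusted p = 0.0104).

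TBX6, which in mouse lies downstream of TBXT, rose in PS medium, and with Dox its mean was 1.26 times that of untreated cells. Its deposited intensities were 191, 196 and 213 in PS medium with Dox, against 369, 385 and 457 in PS medium. The untreated arrays had 160.3, 146 and 170.3. The 3 groups did not overlap, and the spread within each was small. TBX6 was 1.92-fold lower with Dox than in PS medium (log2 -0.94 ± 0.09, SE, n = 3 per group, limma adjusted p = 5.43e-05), with same-number ratios of 0.518, 0.508 and 0.467. The call held in all 19 alternatives, where the fold ran from 1.75 to 2.002. In PS medium TBX6 was 2.44-fold above untreated cells (log2 1.29 ± 0.09, limma adjusted p = 2.49e-06). With Dox it was 1.27-fold above untreated cells (log2 0.35 ± 0.09, limma adjusted p = 0.0153), a call lost without untreated replicate 1 (adjusted p = 0.0515) or 2 (0.0606) and without the third Dox array (0.0506).

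TBX20, the cardiac factor, rose in PS medium and varied widely among replicates. Its deposited intensities were 2428, 2856 and 7608 in PS medium with Dox, against 4837, 6407 and 12671 in PS medium. On untreated arrays the values were 163, 152 and 183. Replicate 3 was the highest in both differentiated groups, and because of it the Dox and PS arrays overlapped. TBX20 was 40.6-fold higher in PS medium than in untreated cells (log2 5.34 ± 0.41, SE, n = 3 per group, limma adjusted p = 4.28e-06), rank 15 among rises. With Dox against PS medium the difference of -0.93 ± 0.41 on the log2 scale did not pass (95% interval -1.83 to -0.02, limma adjusted p = 0.166). Same-number ratios of Dox over PS medium were 0.502, 0.446 and 0.600, below 1 for all 3 numbers. With the replicate number as a block the same difference passed (SE 0.23, limma adjusted p = 0.0170). It also passed without the third Dox array (log2 -1.43, limma adjusted p = 0.0112), and over the 19 alternatives the adjusted p ran from 0.0112 to 0.448. With Dox TBX20 was 21.4-fold above untreated cells (log2 4.42 ± 0.41, limma adjusted p = 1.78e-05).

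TBX3, a T-box repressor, rose in PS medium, and no difference between Dox and PS medium passed the test. Its deposited intensities were 2094, 2161 and 1795 in PS medium with Dox, against 1812, 2105 and 2451 in PS medium. Untreated cells had 5.94, 15.7 and 8.51. The Dox and PS arrays overlapped, while untreated arrays were at the low end of the scale, with 2.68 to 7.59% of probe sets below TBX3. The difference of Dox from PS medium was -0.05 ± 0.15 on the log2 scale (SE, n = 3 per group, 95% interval -0.39 to 0.29, limma adjusted p = 0.877). TBX3 was 82.2-fold higher in PS medium than in untreated cells (log2 6.36 ± 0.15, limma adjusted p = 1.02e-09), rank 8 among rises. It was 79.2-fold higher with Dox than in untreated cells (log2 6.31 ± 0.15, limma adjusted p = 9.27e-10), rank 5. Because it was so dim in untreated cells, the rise in PS medium was 206-fold with a log offset of 1 and 29.2-fold with an offset of 64. The same offsets gave 199-fold and 28.2-fold for Dox against untreated cells.

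TBX5, the coding gene next to TBX3 in the gene listing of GRCh38.p14, stayed dim in all groups. Its deposited intensities were 43.3, 40.9 and 51.6 in PS medium with Dox, against 49.99, 42.1 and 42.3 in PS medium. The untreated arrays had 53.9, 36.6 and 52.6. All groups overlapped, and 17.2 to 22.4% of probe sets lay below TBX5 on the 9 arrays. The log2 difference of PS medium from untreated cells was -0.03 ± 0.10 (95% interval -0.26 to 0.20, limma adjusted p = 0.875). Dox differed from PS medium by 0.02 ± 0.10 (95% interval -0.21 to 0.25, limma adjusted p = 0.946), and from untreated cells by -0.01 ± 0.10 (95% interval -0.25 to 0.22, limma adjusted p = 0.942). The deposited files give no detection call, so whether TBX5 was above background on these arrays is unknown.

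TBX2, the closest relative of TBX3, had similar intensities on all arrays. They were 353, 331 and 401 in PS medium with Dox, against 375, 374 and 369.9 in PS medium. On untreated arrays the values were 384, 367 and 393. The groups overlapped, and the coefficient of variation was 9.90% with Dox, 0.666% in PS medium and 3.36% among untreated arrays. The difference of Dox from PS medium was -0.04 ± 0.08 on the log2 scale (95% interval -0.23 to 0.14, limma adjusted p = 0.798). PS medium differed from untreated cells by -0.03 ± 0.08 (95% interval -0.22 to 0.15, limma adjusted p = 0.817). Dox differed from untreated cells by -0.08 ± 0.08 (95% interval -0.26 to 0.11, limma adjusted p = 0.544).

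**Figure D3:**
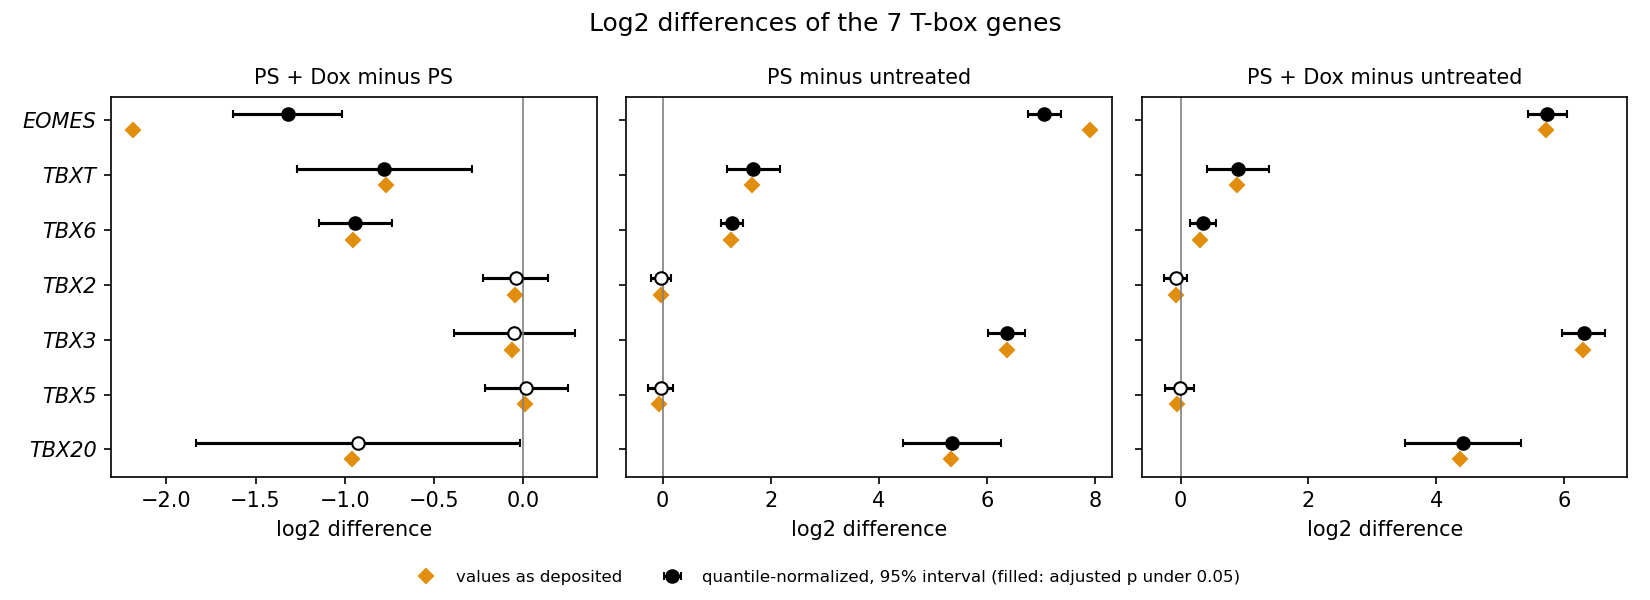
Log2 differences of the 7 genes in the 3 comparisons, on horizontal axes with a scale per panel. Circles are quantile-normalized estimates with 95% intervals, filled where the limma adjusted p is under 0.05, and diamonds are estimates on the values as deposited. In the left panel the EOMES estimates differ, at -1.32 and -2.19, while the other genes have nearly the same estimate on both scales.

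On the third Dox array, the one with the least TCF7L1, the 7 genes did not deviate in 1 direction. EOMES, TBXT and TBX3 were lowest there among the Dox arrays, at 9529, 222 and 1795. TBX20, TBX6, TBX2 and TBX5 were highest there, at 7608, 213, 401 and 51.6. Replicate 3 also held the highest TBX20 and TBX6 in PS medium (12671 and 457) and in untreated cells (183 and 170.3). TBXT was lowest on replicate 3 of PS medium (443). Ratios of Dox over the same-numbered PS array were lowest at replicate 3 for EOMES (0.167), TBXT (0.503), TBX6 (0.467) and TBX3 (0.732). They were highest there for TBX20 (0.600), TBX2 (1.08) and TBX5 (1.22). The part of the low TCF7L1 on the third Dox array in these values was not tested. With Dox against PS medium, EOMES and TBX6 passed with and without that array, TBXT passed when it was included, and TBX20 passed when it was left out.

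The genes with the profile closest to each member were ranked by Pearson r over the 9 arrays, on median-centred log2 values, among 1575 genes whose group means span at least 1 on the log2 scale. The arrays form 3 groups, so large group differences dominate r, and it is given as a description. EOMES was closest to MIXL1 (r = 0.9994), a streak homeobox factor, then to APLNR (0.997), the apelin receptor, and GAD1 (0.9954), a GABA-synthesizing enzyme. MIXL1 intensities were 2761, 3162 and 2097 with Dox, 8223, 8141 and 8309 in PS medium, and 101, 87.9 and 91.3 in untreated cells. TBXT was closest to SYT4 (0.977), a synaptotagmin, and 10 genes exceeded an r of 0.95 with it, against 163 for EOMES. TBX3 was closest to RHOBTB3 (0.9965), TNC (0.9963), which encodes the matrix protein tenascin-C, and SIPA1L2 (0.9962). TBX6 was closest to ARRB1 (0.995), an arrestin, and TBX20 to SEMA6D (0.994), a semaphorin. The highest r for TBX2 was 0.647 and for TBX5 0.405, both genes for which no comparison passed.

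Of 10 other T-box family genes measured, 1 rose and 0 fell with Dox against PS medium (0 falls also at an unadjusted p under 0.05), 2 rose and 1 fell in PS medium against untreated cells, and 2 were higher and 0 lower with Dox than in untreated cells (0 lower unadjusted). Thus 1 of 10 passed with Dox against PS medium, where 17.4% of all genes passed, 3 of 10 in PS medium against untreated cells, where 29.8% did, and 2 of 10 with Dox against untreated cells, where 30.3% did. The first and last counts were also 1 and 2 without the third Dox array. TBX22, a palate-associated factor on the X chromosome, was the one that rose with Dox. Its intensities were 608, 535 and 357 with Dox, 202, 286 and 153 in PS medium, and 84.9, 85.8 and 71.4 in untreated cells. The groups did not overlap. TBX22 was 2.22-fold higher with Dox than in PS medium (log2 1.15 ± 0.22, SE, n = 3 per group, limma adjusted p = 0.00406; 2.58-fold without the third Dox array) and 2.37-fold higher in PS medium than in untreated cells (log2 1.25 ± 0.22, adjusted p = 0.00147). TBX19, a pituitary factor of the brachyury subfamily, rose 1.30-fold in PS medium, and MGA, which combines a T-box with a MAX-binding domain, was 1.25-fold lower. The median log2 difference of the 10 genes was 0.04 with Dox against PS medium and 0.10 in PS medium against untreated cells.

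Signals known to act upstream of streak T-box genes rose in 15 of 25 measured cases in PS medium against untreated cells and fell in 4, with a median log2 difference of 0.55. WNT8A, a Wnt ligand, was 39.2-fold higher, FGF17, a growth factor, 32.0-fold, BMP2, a BMP ligand, 16.7-fold and WNT3 14.3-fold. WNT8A averaged 15.8 on untreated arrays, near the log offset, and the rise was 74.4-fold with an offset of 1 and 16.1-fold with an offset of 64. With Dox against PS medium, 11 fell and 3 rose (median -0.11), and those ligands were among the falls: FGF17 by 5.36-fold, BMP2 by 3.87-fold, WNT8A by 2.22-fold and WNT3 by 2.19-fold. Without the third Dox array these falls were 5.06-fold for FGF17, 4.15-fold for BMP2, 2.33-fold for WNT8A and 1.87-fold for WNT3. WNT3 intensities were 1893, 2464 and 1342 with Dox, 4166, 4419.5 and 3800.1 in PS medium, and 282, 318 and 228 in untreated cells. The 3 that rose were TCF7L2, a TCF/LEF factor, SMAD3, a transducer of Nodal signals, and FGFR1, an FGF receptor. The ligands NODAL and BMP4 did not pass with Dox: NODAL differed by 0.18 and BMP4 by 0.07 on the log2 scale. The count of 11 falls was 7 without PS replicate 2, without Dox replicate 1 or without Dox replicate 3. With Dox against untreated cells 11 were higher and 3 lower, as without the third Dox array. For all genes the shares called were 8.92% higher and 8.44% lower with Dox against PS medium. They were 14.2% and 15.7% in PS medium against untreated cells, and 15.4% and 14.9% with Dox against untreated cells.

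Genes known to lie downstream of EOMES or TBXT rose in 20 of 26 cases in PS medium against untreated cells, and 1 fell, DLL1, a Notch ligand. The median log2 difference was 1.86. With Dox against PS medium 17 fell and 2 rose (median -1.21), and without the third Dox array 14 fell and 1 rose. GSC, an organizer homeobox factor, was 22.9-fold lower (log2 -4.52 ± 0.12, limma adjusted p = 8.11e-09), LHX1, a LIM homeobox factor, 6.54-fold, MESP2, a presomitic factor, 4.13-fold and PDGFRA, a growth factor receptor, 4.02-fold. Without the third Dox array these falls were 23.7-fold for GSC, 5.74-fold for LHX1, 4.33-fold for MESP2 and 3.75-fold for PDGFRA. FST, an activin-binding protein, and DLL1 were the 2 that rose, and the DLL1 call was lost without that array (limma adjusted p = 0.0514). With Dox against untreated cells 12 of the 26 were higher and 0 lower (0 lower at an unadjusted p under 0.05), and 12 also without the third Dox array. GATA6, an endoderm and heart factor, was among them, with intensities of 1537, 2285 and 1848 with Dox and of 2.42, 3.85 and 9.32 in untreated cells. Those untreated values lie below the log offset of 16, so its 90.3-fold difference was 343-fold with an offset of 1 and 28.1-fold with an offset of 64. CER1, a Nodal antagonist, was 81.9-fold above untreated cells (98.9-fold and 53.3-fold with those offsets), while GSC differed by 0.22 on the log2 scale and did not pass. MSGN1, a presomitic target of TBX6 and TBXT in mouse, did not pass in any of the 3 comparisons, with intensities from 129 to 165 over the 9 arrays. Beside these counts, 14.2% of all genes rose and 15.7% fell in PS medium against untreated cells. With Dox, 8.92% of all genes rose and 8.44% fell against PS medium, and 15.4% were higher and 14.9% lower than in untreated cells. The lists share genes, so their counts are not separate observations. FGF8 and WNT3A are also among the upstream signals, GATA4 and GATA6 among the cardiac genes, and CDX2 among the amnion and surface ectoderm markers.

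**Figure D4:**
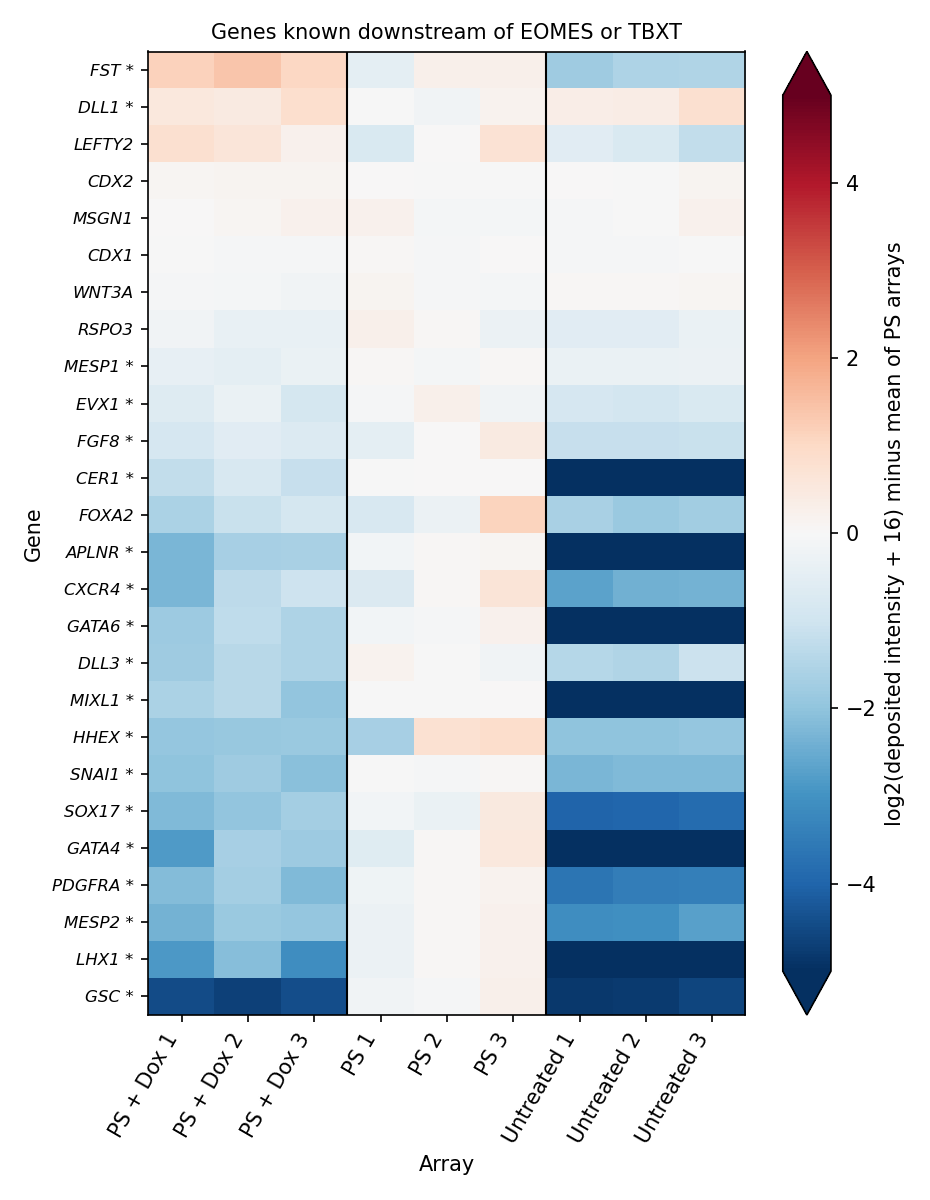
Heat map of the 26 genes known downstream of EOMES or TBXT (rows, ordered by the Dox difference) on the 9 arrays (columns). Colour gives log2(deposited intensity + 16) minus the mean of the PS arrays, capped at 5 in either direction, and asterisks mark genes with a limma adjusted p under 0.05 for Dox against PS medium. Most rows are blue with Dox, 17 of them called lower, and FST and DLL1 are called higher.

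Cardiac and lateral mesoderm genes, known partners and targets of TBX5 and TBX20, divided with Dox: 4 of 21 rose and 4 fell against PS medium. The LIM homeobox gene ISL1 was 16.1-fold higher, NPPB, a natriuretic peptide, 4.35-fold and ACTC1, cardiac actin, 3.92-fold, and MEF2C also rose. GATA4, a heart and endoderm factor, was 3.997-fold lower, and GATA6, GJA5 and SMARCD3 also fell. Without the third Dox array 5 rose and 4 fell, with folds of 13.6 for ISL1, 4.58 for NPPB, 3.93 for ACTC1 and 4.43 for GATA4. In PS medium against untreated cells 10 of 21 rose and 1 fell. GATA6, GATA4 and HAND1, a mesoderm factor, were among the rises. HAND1 averaged 20.1 on untreated arrays, where the rise was 106-fold with an offset of 16, 216-fold with an offset of 1 and 43.3-fold with an offset of 64. With Dox against untreated cells 13 were higher and 1 lower, and without the third Dox array 11 and 1. ISL1 and HAND1 are also amnion markers. Of 15 measured amnion and surface ectoderm markers, 10 rose and 0 fell with Dox against PS medium (0 falls unadjusted), with DLX5, a homeobox factor, 20.3-fold higher. Without the third Dox array the counts were the same and DLX5 was 21.8-fold higher. In PS medium against untreated cells 9 of these rose and 2 fell, and with Dox against untreated cells 10 were higher and 0 lower (0 lower unadjusted), with 1 lower, KRT7, without the third Dox array. Their summed intensities ran from 40207 to 45302 with Dox, from 21107 to 23026 in PS medium and from 3849 to 4349 in untreated cells. Their part in the T-box results was not tested. Among all genes, 8.92% rose and 8.44% fell with Dox against PS medium. The shares were 14.2% and 15.7% in PS medium against untreated cells, and 15.4% and 14.9% with Dox against untreated cells.

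Reported targets of TBX2 and TBX3, among them senescence genes, had the fewest calls with Dox against PS medium. Of all genes, 14.2% rose and 15.7% fell in PS medium against untreated cells. With Dox against PS medium 8.92% rose and 8.44% fell, and against untreated cells 15.4% were higher and 14.9% lower. Of 7 measured, 2 rose and 2 fell in PS medium against untreated cells, namely NDRG1, a stress-response gene (2.45-fold higher), GJA1, a connexin (1.30-fold higher), MYCN (1.48-fold lower) and CDH1, E-cadherin (1.36-fold lower). With Dox against PS medium 1 rose, CDH1 (1.504-fold, and 1.39-fold without the third Dox array), and 0 fell (0 at an unadjusted p under 0.05). With Dox against untreated cells 2 were higher, NDRG1 and GJA1, and 1 lower, and both calls of a rise were lost without the third Dox array (limma adjusted p = 0.0843 and 0.0632). The cell cycle inhibitors CDKN1A, CDKN2A and CDKN2B, which TBX2 and TBX3 are known to repress, did not pass in any of the 3 comparisons, with log2 differences between -0.13 and 0.03.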

How the data were processed

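Per the submitters' processing notes, the deposited values came from Affymetrix Expression Console 1.1.1 with PLIER 2.0. The authors deposited 1 intensity for each probe set, unlogged. Their background correction and between-array normalization are not stated in the labels or files. Of 33297 probe sets, 19460 had 1 gene symbol, 1754 several and 12083 none listed. 19429 of the first took the current symbol of the GRCh38.p14 listing. The brightest probe set by mean represented each gene, leaving 18417 genes.

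Arrays were quantile-normalized over all probe sets, converted to log2(value + 16) and fitted in limma 3.58.1 (lmFit, eBayes with a trend), each group having its own mean, under R 4.3.3, with data.table, version 1.17.8. This leaves 6 residual degrees of freedom. The 3 groups shared 1 estimate of the spread per gene, so each SE also draws on the group outside its comparison. Untreated arrays varied least for TBXT and TBX20, with log2 SDs of 0.126 and 0.098. The SDs were 0.452 and 0.876 with Dox, and 0.364 and 0.730 in PS medium. Fold changes are on that scale and understate the change of dim genes. The same fit on log2(value + 16) of the values as deposited is given for EOMES, at the top of the scale. Plots used matplotlib 3.10.9 under Python 3.11.15. The fit was tested on simulated data.

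Members and lists were chosen with earlier results of these data known, and lists are described by counts and medians only. Named genes were the members, TCF7L1, up to 4 of the largest changes past the threshold per list and comparison, and the 3 closest profiles per member. CDKN1A, CDKN2A, CDKN2B, MSGN1, NODAL, BMP4, the cell type markers, and the remaining called genes of short counts were named after their values were seen. Nothing in the labels ties replicates to separate cultures. The p-values therefore cover only variation among these arrays, which could be technical. Deviations from group means of same-numbered arrays correlated at 0.245, 0.427 and 0.246 between PS medium with Dox and PS medium, and at 0.246, 0.309 and 0.296 between PS medium with Dox and untreated cells. The numbers were therefore taken to pair those samples, from the data and not the labels. The main fit did not use this pairing. It entered only the alternative with the replicate number as a block, where TBX20 was the member whose call with Dox against PS medium changed. Between PS medium and untreated cells the correlations were 0.086, 0.397 and 0.271, and the numbers were not taken to pair them. Numbers that pair the Dox arrays with both other groups would link those groups as well, so the pairing is unsettled. Alternatives covered normalization, log offset, filter, unit, prior, block and leaving out each array. The number of arrays limits precision.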

Additional observations from a re-analysis of the deposited data

How the results depend on the processing

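Over 19 alternatives (18 for TBX5, which the filter on dim genes removes), EOMES, TBX3, TBX6 and TBX20 rose in PS medium against untreated cells in each, as did TBXT. With Dox against PS medium, EOMES and TBX6 fell in each. The counts of genes past the threshold stayed within 1.5 times. The TBXT fall with Dox of -0.78 on the log2 scale missed the limma threshold over all probe sets (adjusted p = 0.0665), where more features were tested. It also missed when only those 2 groups were fitted (adjusted p = 0.0776). There fewer arrays were used and the spread came without the untreated arrays (SE 0.245, against 0.221 in the main fit). The TBX20 difference of -0.93 passed with the replicate block (adjusted p = 0.0170), which also raised the count of other T-box genes higher with Dox to 2. The block changed no other call of a member. Leaving out 1 array at a time, Dox against PS medium ran from -0.96 to -0.52 for TBXT, from -1.43 to -0.52 for TBX20, from -0.15 to 0.054 for TBX3, from -0.042 to 0.057 for TBX5 and from -0.12 to 0.011 for TBX2. Dox against untreated cells ran from 0.31 to 0.39 for TBX6 and from -0.12 to 0.045 for TBX5, and PS medium against untreated cells from -0.14 to 0.029 for TBX5. None of the TBX2, TBX3 and TBX5 values that changed sign passed the threshold. Median centring turned the TBX2 difference between PS medium and untreated cells to 0.0039 (adjusted p = 0.981). The causes were not tested.

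Among list counts, leaving out 1 array gave 1 to 2 other T-box genes higher, 7 to 10 upstream signals lower and 1 to 3 downstream genes higher with Dox against PS medium. In PS medium against untreated cells it gave 0 to 1 other T-box genes lower and 0 to 1 downstream genes lower. With Dox against untreated cells it gave 0 to 2 reported TBX2 and TBX3 targets higher and 0 to 1 amnion markers lower. Without the dimmest genes, 0 cardiac genes were lower than in untreated cells in PS medium or with Dox, as the filter removes genes. Over all probe sets 0 downstream genes fell in PS medium. Chosen after seeing the data were quantile normalization after log2 and leaving out each array on the values as deposited, where EOMES with Dox against PS medium ran from -2.38 to -2.02. No detection calls were used here, so the level of dim genes such as TBX5, and of TBX3 in untreated cells, rests on intensities near the low end of the scale.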
